A study of Saccharomyces cerevisiae with 15 samples.

Results

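The comparison described here sets budding yeast cells that lack SLX5 beside wild-type (WT) cells. Its members are the genes with at least 1 FPKM in 3 or more of the 6 slx5 and WT libraries, 6344 of the 7126 genes in the table (782 did not reach this level, and 546 of those were listed at 0 in all 6). FPKM, the deposited unit, counts the fragments that map to a gene, divided by transcript length and by library size. Polyadenylated RNA from 5 strains, in 3 libraries each, was measured by sequencing after growth in rich glucose medium (YPD) at 30 °C. Per the labels, slx5 (strain MHY7919) is MATalpha and carries the deletion alleles his3, leu2, met15, ura3 and lys2 besides slx5::kanMX. Of the other strains, set1 (MHY8915) is MATalpha with his3, leu2, met15, ura3, lys2 and set1::HIS3, and ulp2 (MHY5033) is MATalpha with the same 5 alleles and ulp2::kanMX. WT (MHY2972) is MATa and carries his3, leu2, ura3 and lys2, with no met15 allele. The double mutant ulp2 slx5 was not compared here. It entered the fit for its replicate spread, and the gene means from which the chromosome scores are taken. Below, 3 values of a strain stand in the order of its replicates 0, 1 and 2. Each group is 1 strain, so a difference belongs to the strain with all its alleles, and the labels do not say whether the 3 libraries of a strain came from separate cultures. P-values therefore measure only the spread between these libraries, which may be technical.

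SUMO is a small protein that cells join to lysines of other proteins, often as chains. Slx5 and its partner Slx8 form a ubiquitin ligase of the RING type that binds such chains and adds ubiquitin to the sumoylated protein, which the Cdc48 segregase and the proteasome can then handle. In budding yeast the pair is known for its part in genome stability, and the SUMO protease Ulp2, which trims the chains, acts on the same substrates. Set1 is the histone methyltransferase of the COMPASS complex.

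Libraries were alike in scale. Their medians lay between 37.9 and 38.8 FPKM in slx5 and between 37.8 and 39.0 FPKM in WT, and 661 to 683 genes in slx5 and 705 to 748 in WT were listed at 0. Counts were not analysed here, so depth is unknown. From the steps between low values, depth relative to WT replicate 1 was estimated at 0.874 to 1.05 in slx5 and at 0.771 to 1.003 in WT. Across genes, which are not independent replicates, slx5 libraries correlated with each other by 0.981 to 0.983, WT libraries by 0.977 to 0.982, and slx5 with WT by 0.931 to 0.941. The 2 RPL41 genes, which encode a very short ribosomal protein, took 11.2 to 15.9% of a library's FPKM in slx5 and 7.74 to 14.1% in WT. WT replicate 1 was the lowest there. The 8 mitochondrially encoded genes looked up were listed at 0 in all 6 libraries. Chromosomes I and XII had scores (defined with the chromosome results) of -0.245 to -0.192 and -0.160 to -0.148 on the log2 scale in slx5. WT was close to slx5 there, at -0.2895 to -0.2485 and -0.186 to -0.171. In ulp2 the scores were 0.667 to 0.699 and 0.620 to 0.642, so differences from ulp2 in genes of these chromosomes hold that offset too.

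The genotype was checked first. SLX5 (YDL013W, chromosome IV, 429067 to 430926) had 0.0622, 0.0563 and 0 FPKM in slx5, against 27.4, 33.5 and 27.3 FPKM in WT, so the deleted gene was near 0 in slx5 alone, while set1 had 27.3, 24.9 and 25.7 FPKM and ulp2 22.0, 28.2 and 28.4 FPKM. Its partner SLX8 had 30.4, 30.5 and 33.6 FPKM in slx5 and 30.1, 33.8 and 25.6 FPKM in WT, and those ranges overlap (log2 difference 0.083, SE 0.09). LEU2 and URA3 were listed at 0 in all libraries of the 4 strains.

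Other genes did not follow the labels in every strain. LYS2, labelled as deleted in all 4 strains, had 44.1, 43.0 and 43.1 FPKM in slx5 and 44.6, 47.9 and 46.1 FPKM in ulp2, against 0.0486, 0.128 and 0.0319 FPKM in set1 and 0.0647, 0 and 0.0548 FPKM in WT. MET17, the homocysteine synthase gene labelled as the met15 deletion, had 0.359, 1.06 and 0.764 FPKM in slx5, but 293, 319.6 and 288 FPKM in set1, 329, 315 and 286 FPKM in ulp2 and 153, 120.1 and 139 FPKM in WT. It was thus near 0 in slx5 only, although set1 and ulp2 carry the same label. HIS3 was expressed in every library, with 119.6, 130.5 and 133.5 FPKM in slx5 and 82.8, 103.5 and 98.4 FPKM in WT. In set1 the labelled allele set1::HIS3 carries this gene, so its expression there follows the label.

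Mating-type expression matched the labels. HMRA1, which shares its sequence with the MATa1 gene, was listed at 0, 0 and 0 FPKM in slx5, against 271, 226 and 204 FPKM in WT. Of the 7 tested MATa-specific genes 7 were called lower in slx5, among them the a-factor genes MFA1 with 334.5, 172 and 219 FPKM in slx5 and 8315, 6565 and 8367 FPKM in WT and MFA2 with 60, 21.6 and 82.4 FPKM in slx5 and 6496, 5415 and 6327 FPKM in WT, and the alpha-factor receptor gene STE2 with 16.7, 12.3 and 13.5 FPKM in slx5 and 845, 883 and 859.5 FPKM in WT. Of the 5 MATalpha-specific genes 5 were called higher, among them the alpha-factor gene MF(ALPHA)2 with 2016, 2003 and 1908 FPKM in slx5 and 20.1, 18.7 and 21.0 FPKM in WT and the a-factor receptor gene STE3 with 395, 394 and 405 FPKM in slx5 and 3.92, 2.58 and 2.62 FPKM in WT. The set1 strain had 364, 331 and 358 FPKM of STE3 and ulp2 had 303, 308 and 314 FPKM. Mating type, LYS2 and MET17 therefore differ between slx5 and WT together with SLX5, and in the comparison with WT their parts cannot be told apart. Differences from set1 and ulp2, which share the alpha type with slx5, are given beside those from WT because of the mating type. LYS2 also differs between slx5 and set1. MET17 differs between slx5 and each of the other strains compared, so its part cannot be told apart from that of SLX5 in any of these comparisons.

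**Figure D1:**
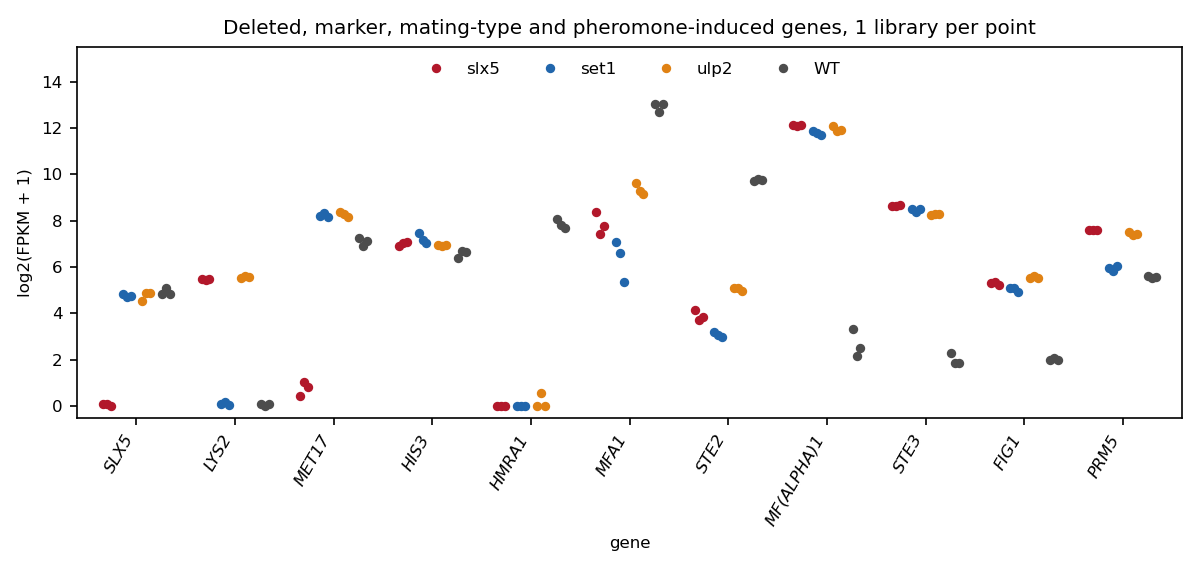
Level of 11 genes, as log2(FPKM + 1) on the vertical axis, in each of 3 libraries of slx5, set1, ulp2 and WT. SLX5 and MET17 are near 0 in slx5 alone, LYS2 is near 0 in set1 and WT, and the a-type genes HMRA1, MFA1 and STE2 are highest in WT.

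Differences are given as log2 differences of log2(FPKM + 1), slx5 minus the other strain, a scale that understates changes of low genes, with the standard error (SE) of the fit. A gene was called at a limma p-value under 0.05 after Benjamini-Hochberg adjustment over the 6344 genes, and "higher" or "lower" below means called. Of 6344 genes, 1654 were higher in slx5 than in WT (26.1%) and 1629 lower (25.7%), so 51.7% were called. Counts within gene lists below are to be read beside these shares. By at least 2-fold, 407 were higher (6.42%) and 54 lower (0.851%). The balance depended on the scale: with each library scaled to its total without RPL41A and RPL41B, 2180 were higher and 710 lower, and the median difference over all genes went to 0.15, against -0.0066 on the deposited scale. By quantile normalization 1358 were higher and 1979 lower, with a median of -0.084. In 29.7% of genes all slx5 libraries lay above all WT libraries, and in 29.6% below them. Against set1, 1332 genes were higher in slx5 (21.0%) and 1473 lower (23.2%), 44.2% in all, and by at least 2-fold 129 were higher (2.03%) and 43 lower (0.678%). Against ulp2, 1491 were higher (23.5%) and 1457 lower (23.0%), 46.5% in all, and by at least 2-fold 120 were higher (1.89%) and 146 lower (2.30%). The 3 comparisons share the slx5 libraries.

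The largest rises, mating-type and marker genes aside, included several stress genes. HSP12 (YFL014W, chromosome VI, 107256 to 107585), a small membrane-binding heat shock protein, had 828.5, 813 and 899.9 FPKM in slx5, against 14.3, 9.89 and 9.02 FPKM in WT. DDR2 (YOL052C-A, chromosome XV, 231570 to 231755), a small stress protein, had 560.3, 624 and 614 FPKM in slx5, against 7.66, 7.63 and 14.8 FPKM in WT. HSP26, a small heat shock chaperone, had 464, 474 and 478 FPKM in slx5 and 11.3, 6.33 and 8.66 FPKM in WT. No slx5 library came near any WT library in these 3 genes, whose log2 differences were 6.16 (SE 0.12), 5.83 (SE 0.22) and 5.63 (SE 0.13). TMA10, which encodes a ribosome-associated protein, had 104, 126 and 126 FPKM in slx5 and 14.6, 2.57 and 2.82 FPKM in WT, so WT replicate 0 stood above the other WT libraries. DPA10 had 25.9, 21.8 and 25.4 FPKM in slx5 and 0, 0 and 1.83 FPKM in WT, a gene near 0 in WT. Also among the 12 largest were HXK1, HUG1, PIR3 and GPH1, described below, and 3 IDs that the reference does not annotate, YKL177W, YFR052C-A and YPR160C-A.

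The largest falls were smaller. Apart from 4 unannotated IDs, the 12 included ANB1, TIR1, FIT1, PHO5, AAC3, ZRT1 and PHO12, all described below, and YNL146C-A with 0, 6.60 and 4.05 FPKM in slx5 and 8.97, 11.8 and 18.6 FPKM in WT, a low gene whose adjusted p was 0.0498, a call lost without slx5 replicate 0 or 2 or WT replicate 0, 1 or 2 (highest adjusted p = 0.225, log2 difference -1.13). Among these annotated genes ANB1 fell most, with a log2 difference of -2.39 (SE 0.13), against -4.86 (SE 0.12) for the deleted SLX5 itself.

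**Figure D2:**
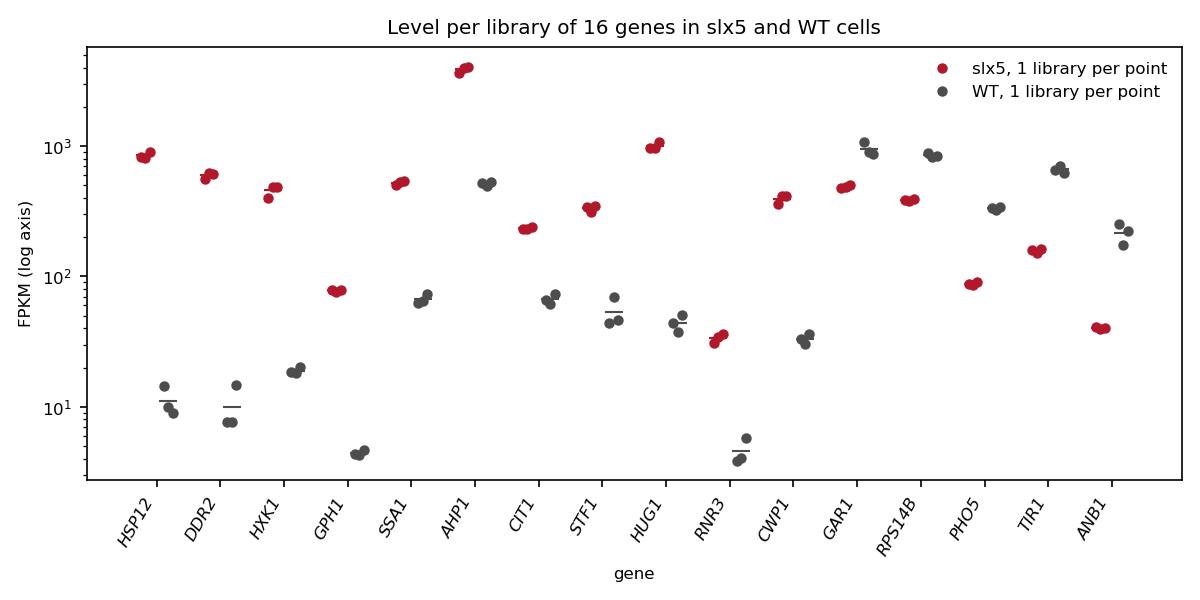
FPKM on a log axis for 16 genes, 1 point per library with the mean as a bar, slx5 left of WT. In the first 11 genes every slx5 point lies above every WT point, and in GAR1, RPS14B, PHO5, TIR1 and ANB1 every slx5 point lies below.

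Reporters of the general stress response, the program run by the transcription factors Msn2 and Msn4, rose almost as a whole. Of 20 tested reporters 19 were higher, against 26.1% of all genes, and their median difference was 1.60. The exception, the phosphatase gene SDP1, had 11.1, 10.6 and 10.7 FPKM in slx5 and 8.96, 8.21 and 9.62 FPKM in WT and did not pass (adjusted p = 0.229). YGP1, a secreted glycoprotein gene, had 460.2, 498 and 517 FPKM in slx5 and 61.5, 65.6 and 65.2 FPKM in WT (log2 difference 2.92, SE 0.091). The cytosolic catalase gene CTT1, a classical target of this program, had 20.6, 22.0 and 21.8 FPKM in slx5 and 8.63, 8.66 and 9.46 FPKM in WT (log2 difference 1.18, SE 0.11), a far smaller change than that of HSP12. In bulk RNA, more cells in a state and more RNA per cell cannot be told apart.

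Called changes of the regulator genes lay between -0.52 and 0.83. The largest rise was that of PDE1, a cyclic AMP phosphodiesterase gene, with 55.9, 70.9 and 72.9 FPKM in slx5 and 33.1, 41.1 and 36.2 FPKM in WT. MSN4 had 58.1, 59.9 and 60.5 FPKM in slx5 and 34.3, 44.7 and 39.1 FPKM in WT (log2 difference 0.59, SE 0.098), while MSN2 had 41.3, 44.4 and 42.6 FPKM in slx5 and 43.6, 52.8 and 43.9 FPKM in WT and was not called (adjusted p = 0.222). The heat shock factor gene HSF1 rose by 0.45 (SE 0.11) and the oxidative stress factor gene YAP1 by 0.37 (SE 0.056). PDE1 and HSF1 lie on chromosome VII, which stood higher as a whole (below). Lower were WHI2 (-0.43) and PSR2 (-0.52), a pair whose products act on the stress response at the membrane, and TPK3 (-0.36), a catalytic subunit gene of protein kinase A. Of 18 regulators 7 were higher and 3 lower, beside 26.1% and 25.7% of all genes.

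Msn2 and Msn4 bind the stress response element, searched here as AGGGG on both strands in the 300 bases just before each gene's start codon on R64. It was in 22.2% of all 5987 promoters, in 15 of the 20 stress reporters (75.0%), in 166 of 374 promoters of genes higher by at least 2-fold (44.4%) and in 5 of 45 promoters of genes lower by at least 2-fold (11.1%). HSP12 and DDR2 are shown because they changed most among reporters that hold it. The HSP12 promoter (chrVI:106956-107255, forward strand) holds 2 matches and that of DDR2 (chrXV:231756-232055, reverse strand) holds 3, in capitals below, none overlapping another motif searched. The sequences are from the RefSeq R64 genome, and a match describes the letters only.
HSP12: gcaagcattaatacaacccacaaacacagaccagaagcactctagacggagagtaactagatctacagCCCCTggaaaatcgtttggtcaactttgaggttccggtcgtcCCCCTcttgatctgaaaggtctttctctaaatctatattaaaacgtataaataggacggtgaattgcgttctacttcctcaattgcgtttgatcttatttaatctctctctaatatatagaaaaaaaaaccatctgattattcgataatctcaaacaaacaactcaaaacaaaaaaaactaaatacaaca
DDR2: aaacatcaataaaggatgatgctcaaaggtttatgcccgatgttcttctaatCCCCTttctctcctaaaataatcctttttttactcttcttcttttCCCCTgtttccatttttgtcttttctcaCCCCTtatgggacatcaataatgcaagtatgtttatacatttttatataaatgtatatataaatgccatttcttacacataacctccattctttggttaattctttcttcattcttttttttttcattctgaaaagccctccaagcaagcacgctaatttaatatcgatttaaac

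Against the other alpha-type strains the reporters' median differences were smaller. The median difference over the 20 reporters was 0.64 against set1 and 0.55 against ulp2. HSP12 averaged 32.2 FPKM in set1 and 371 FPKM in ulp2, which left slx5 higher by 4.68 (adjusted p = 1.29e-11) and 1.19 (adjusted p = 3.34e-06). For RTC3, slx5 stood 2.34 above WT and 1.46 above ulp2, but the difference from set1 was -0.037 (adjusted p = 0.85). SIP18, which encodes a desiccation protein, was lower in slx5 than in ulp2 (log2 difference -1.80, adjusted p = 0.000159).

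Genes of reserve carbohydrates rose with the stress genes. All 7 trehalose genes were higher (median 0.59), led by TSL1, a subunit gene of trehalose synthase, with 40.6, 49.0 and 49.7 FPKM in slx5, against 5.26, 6.19 and 6.56 FPKM in WT. The neutral trehalase gene NTH1, which breaks trehalose down, had 120.1, 131 and 137.5 FPKM in slx5 and 41.6, 40.7 and 48.5 FPKM in WT, so genes of synthesis and breakdown were both higher. Against set1 3 of the 7 trehalose genes were higher and 1 lower (median 0.15), and against ulp2 7 of 7 were higher (median 0.66). Of 14 glycogen genes 13 were higher and 1, the phosphatase regulator gene PIG2, lower (median 0.51). The PIG2 result was a call lost without slx5 replicate 0 or 1 or WT replicate 0, 1 or 2 (highest adjusted p = 0.157, log2 difference -0.19). The glycogen phosphorylase gene GPH1 had 79.2, 76.5 and 78.6 FPKM in slx5, against 4.38, 4.30 and 4.66 FPKM in WT (log2 difference 3.86, SE 0.09), with no overlap. The glycogen synthase gene GSY2 had 50.1, 54.9 and 58.2 FPKM in slx5 and 14.1, 13.0 and 15.9 FPKM in WT, while its paralog GSY1 had 17.1, 20.4 and 21.3 FPKM in slx5 and 14.6, 12.4 and 16.4 FPKM in WT, a call lost without slx5 replicate 1 or 2 or WT replicate 1 (highest adjusted p = 0.07, log2 difference 0.32). GSY1 averaged 75.2 FPKM in set1, so that slx5 was lower than set1 there (log2 difference -1.88, adjusted p = 2.42e-07). Over the list, the median difference was -0.084 against set1 and 0.28 against ulp2.

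Glucose phosphorylation genes split by isoform. HXK1 (YFR053C, chromosome VI, 253592 to 255049), the hexokinase gene that glucose represses, had 403, 485 and 488 FPKM in slx5, against 18.3, 18 and 20.1 FPKM in WT. The glucokinase gene GLK1 had 368.5, 419 and 404.5 FPKM in slx5 and 108.5, 100.3 and 134 FPKM in WT and its relative EMI2 104.6, 113 and 107.5 FPKM in slx5 and 51.3, 42.5 and 53.2 FPKM in WT. HXK2, the main hexokinase gene on glucose, had 1298, 1276 and 1255 FPKM in slx5 and 1372, 1310 and 1366 FPKM in WT and was not called (adjusted p = 0.117), although its 3 slx5 libraries lay just under the WT libraries. Its level per length stayed above that of HXK1 in every slx5 library. HXK1 was also higher in slx5 than in set1 (1.63) and ulp2 (2.77).

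Of 17 tested hexose transporter and sensor genes 9 were higher and 1 lower. Among the abundant transporters, the high-affinity gene HXT2 had 451, 415 and 421 FPKM in slx5 and 234, 197 and 247 FPKM in WT and the low-affinity gene HXT3 1261, 1230 and 1235 FPKM in slx5 and 924, 806 and 998 FPKM in WT, while HXT1, the transporter gene most tied to high glucose, had 171, 179 and 170.1 FPKM in slx5 and 159.9, 151 and 176 FPKM in WT and was not called. HXT7 had 15.8, 14.9 and 17.1 FPKM in slx5 and 2.83, 2.87 and 2.61 FPKM in WT, but it is nearly identical to HXT6, and how their reads were divided was not stated. The glucose-sensing regulators diverged, with MTH1 at 0.42 (SE 0.1) and STD1 at -0.38 (SE 0.076). Against set1, 3 of the 17 were higher in slx5 and 7 lower, including HXT1 (-0.99) and HXT4 (-0.86).

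Glycolysis did not move as a unit. Of 23 genes 7 were higher, 6 lower and 10 not called, shares close to the 26.1% and 25.7% of all genes. Their median was -0.022, and its sign changed between scalings. Against set1 1 was higher and 10 lower, and against ulp2 10 were higher and 8 lower. The glyceraldehyde-3-phosphate dehydrogenase isoform genes went in opposite directions: TDH1 had 517, 582 and 588 FPKM in slx5 and 148, 126 and 167 FPKM in WT, while TDH2 had 2769, 2861 and 2879 FPKM in slx5 and 6627, 5579 and 6464 FPKM in WT. TDH3, the most abundant of the 3, had 28000, 28570 and 29270 FPKM in slx5 and 22520, 18870 and 23070 FPKM in WT. Likewise the minor pyruvate kinase gene PYK2 rose by 1.11 (SE 0.08) and the major one, CDC19, fell by 0.58 (SE 0.063). The TDH genes are close in sequence, so their split is uncertain.

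Chaperone genes rose selectively. Of 23 genes for Hsp70, Hsp90 and their partners 16 were higher and 5 lower (median 0.65). SSA1 (YAL005C, chromosome I, 139503 to 141431), a cytosolic Hsp70 gene, had 499, 527 and 536.5 FPKM in slx5, against 63.0, 64.6 and 73.8 FPKM in WT (log2 difference 2.94, SE 0.072). The heat-inducible Hsp70 gene SSA4 had 86.5, 100.4 and 98.0 FPKM in slx5 and 25.4, 21.7 and 22.1 FPKM in WT and the heat-inducible Hsp90 gene HSP82 236, 231 and 246 FPKM in slx5 and 68.4, 59.4 and 75.8 FPKM in WT. The mitochondrial disaggregase gene HSP78 had 49.9, 50.5 and 50.7 FPKM in slx5 and 15.3, 12.7 and 15.49 FPKM in WT. The ribosome-bound Hsp70 genes went the other way, SSB1 with 541, 517 and 512.5 FPKM in slx5 and 899, 751 and 819.6 FPKM in WT and SSB2 with 864, 849 and 840.1 FPKM in slx5 and 1126, 1086 and 1157 FPKM in WT, and so did the nucleotide exchange factor gene FES1, with 168, 147 and 153 FPKM in slx5 and 249.8, 255 and 220.5 FPKM in WT. SSA1 and SSA2, and SSB1 and SSB2, are near copies, so their split is uncertain. SSA1 was higher in slx5 than in set1 by 1.89 and than in ulp2 by 0.63. The difference from ulp2 holds the offset of chromosome I, whose scores were higher in ulp2 than in slx5.

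Hsf1 binds the heat shock element, searched on both strands as its 3 repeats GAA, TTC and GAA with a gap of 2 bases between neighbours. It was in 0.869% of the 5987 promoters and in 9 of the 23 of this list (39.1%). The SSA1 promoter (chrI:141432-141731, reverse strand) is shown as the list's largest rise, with its match in capitals on the reverse complement.
SSA1: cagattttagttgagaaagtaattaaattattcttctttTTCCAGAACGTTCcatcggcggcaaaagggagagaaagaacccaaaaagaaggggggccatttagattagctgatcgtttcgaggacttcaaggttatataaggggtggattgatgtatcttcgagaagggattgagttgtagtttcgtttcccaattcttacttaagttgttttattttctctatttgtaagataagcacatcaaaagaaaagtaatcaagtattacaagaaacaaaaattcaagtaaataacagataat

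The largest rises among 29 genes of oxidative stress defence were in peroxidases. AHP1, a thiol peroxidase gene, had 3649, 3939 and 4064 FPKM in slx5, against 518, 492 and 528 FPKM in WT, a log2 difference of 2.92 (SE 0.058). The mitochondrial peroxiredoxin gene PRX1 had 173.5, 182.5 and 194 FPKM in slx5 and 31.8, 31.4 and 27.9 FPKM in WT and the glutathione peroxidase gene GPX2 178.5, 166 and 174 FPKM in slx5 and 45.0, 29.1 and 41.8 FPKM in WT. SRX1, the sulfiredoxin gene that restores peroxiredoxins, had 16.7, 17.2 and 14.2 FPKM in slx5 and 1.67, 1.71 and 0.933 FPKM in WT. In all, 20 were higher and 3 lower, namely TRX1 (-0.44), GRX3 (-0.19) and OYE2 (-0.17). For GRX3 this was a call lost without slx5 replicate 0, 1 or 2 or WT replicate 0 or 1 (highest adjusted p = 0.17, log2 difference -0.13), and for TRX1 a call lost without slx5 replicate 1 or WT replicate 1 (highest adjusted p = 0.0682, log2 difference -0.36). Each of AHP1, PRX1 and GPX2 was also higher in slx5 than in set1, by 0.84 to 1.24, and than in ulp2, by 0.69 to 1.12. AHP1 lies on chromosome XII, so its difference from ulp2 holds the offset of that chromosome too.

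Respiration genes in the nucleus rose together. Of 17 genes of the tricarboxylic acid cycle 16 were higher, as were 25 of 25 genes of the respiratory complexes and 16 of 16 of ATP synthase, with medians of 0.94, 0.93 and 0.78. The citrate synthase gene CIT1 had 232, 229.8 and 239.8 FPKM in slx5, against 65.3, 61.5 and 72.8 FPKM in WT (log2 difference 1.80, SE 0.062). The isocitrate dehydrogenase subunit genes IDH1 and IDH2 had 318 ± 7.74 FPKM in slx5 and 152 ± 13.7 FPKM in WT, and 520.1 ± 9.44 FPKM in slx5 and 188 ± 11.7 FPKM in WT (SD, n = 3 each). The exception was KGD1, with 86.5, 82.8 and 82.5 FPKM in slx5 and 69.6, 79.2 and 83.1 FPKM in WT. Of the cytochrome c genes, CYC1, the aerobic isoform, had 182, 210.3 and 221 FPKM in slx5 and 93.3, 79.1 and 80.6 FPKM in WT, and CYC7, the isoform made with little oxygen, 52.5, 53.1 and 56.5 FPKM in slx5 and 9.44, 8.79 and 6.79 FPKM in WT. QCR9 of complex III had 717, 755 and 780.4 FPKM in slx5 and 312.5, 196 and 283 FPKM in WT. The ATP synthase inhibitor genes STF1 and INH1 led their list, STF1 with 343, 315 and 349 FPKM in slx5 and 43.9, 69.3 and 46.0 FPKM in WT and INH1 with 298, 303 and 369 FPKM in slx5 and 107, 122 and 122 FPKM in WT, ahead of the catalytic subunit gene ATP2 with 836, 864.5 and 869 FPKM in slx5 and 519, 467 and 520 FPKM in WT.

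HAP4, the activating subunit gene of the Hap complex that drives respiration genes, had 194, 208 and 222 FPKM in slx5 and 103, 109.8 and 125 FPKM in WT (log2 difference 0.88, SE 0.097). Of the DNA-binding subunit genes, HAP2 (-0.052) and HAP5 (0.053) were not called and HAP3 was lower (-0.32). HAP4 was lower in slx5 than in set1, where it averaged 268 FPKM (-0.36, adjusted p = 0.00916), while the median of the respiratory complex genes was higher in slx5 than in set1 by 0.64 and than in ulp2 by 1.11. The Hap complex binds CCAAT, searched on both strands, which was in 41.8% of all promoters, in 14 of 17 of the cycle genes (82.4%) and in 76.0% of the respiratory complex genes. The CIT1 promoter (chrXIV:631062-631361, reverse strand) is shown with its single match in capitals, the largest rise of the cycle genes.
CIT1: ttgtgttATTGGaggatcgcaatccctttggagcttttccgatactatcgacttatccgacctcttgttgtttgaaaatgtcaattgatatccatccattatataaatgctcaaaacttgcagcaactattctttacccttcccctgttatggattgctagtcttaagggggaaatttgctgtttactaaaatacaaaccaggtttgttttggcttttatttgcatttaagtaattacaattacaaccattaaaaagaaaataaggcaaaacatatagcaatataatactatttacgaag

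Of 72 mitochondrial ribosomal protein genes 16 were higher and 6 lower in slx5 than in WT, beside 26.1% and 25.7% of all genes. Their median was 0.0055, and scaled without the RPL41 genes 28 were higher. Against set1 27 were higher in slx5 and 1 lower (median 0.17), and against ulp2 59 were higher and 2 lower (median 0.42). MRP8, whose place in the ribosome is uncertain, led the list with 237, 264 and 273 FPKM in slx5 and 124, 130.1 and 136 FPKM in WT. Genes of carbon use without glucose rose at low levels: of 14 genes of the glyoxylate cycle and gluconeogenesis 12 were higher and 1 lower, among them the regulator gene ADR1 with 14.3, 14 and 15.2 FPKM in slx5 and 3.65, 4.48 and 4.79 FPKM in WT and the peroxisomal citrate synthase gene CIT2 with 84.2, 83.0 and 84.5 FPKM in slx5 and 37.7, 26.3 and 31.6 FPKM in WT. By quantile normalization 6 were higher. Against set1 6 were higher and 2 lower, and against ulp2 1 was higher and 6 lower (median -0.22). Of 8 aldehyde dehydrogenase and GABA genes 7 were higher and 1, ALD5, lower (median 1.24), for ALD5 a call lost without WT replicate 2 (adjusted p = 0.0526, log2 difference -0.17). The glutamate decarboxylase gene GAD1 had 101, 104 and 107 FPKM in slx5 and 13.7, 14.3 and 14.9 FPKM in WT, the mitochondrial aldehyde dehydrogenase gene ALD4 84.3, 98.2 and 100.5 FPKM in slx5 and 21.0, 17.5 and 19.6 FPKM in WT and the cytosolic one, ALD6, 287, 283 and 268 FPKM in slx5 and 96.4, 90.5 and 104.6 FPKM in WT.

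**Figure D3:**
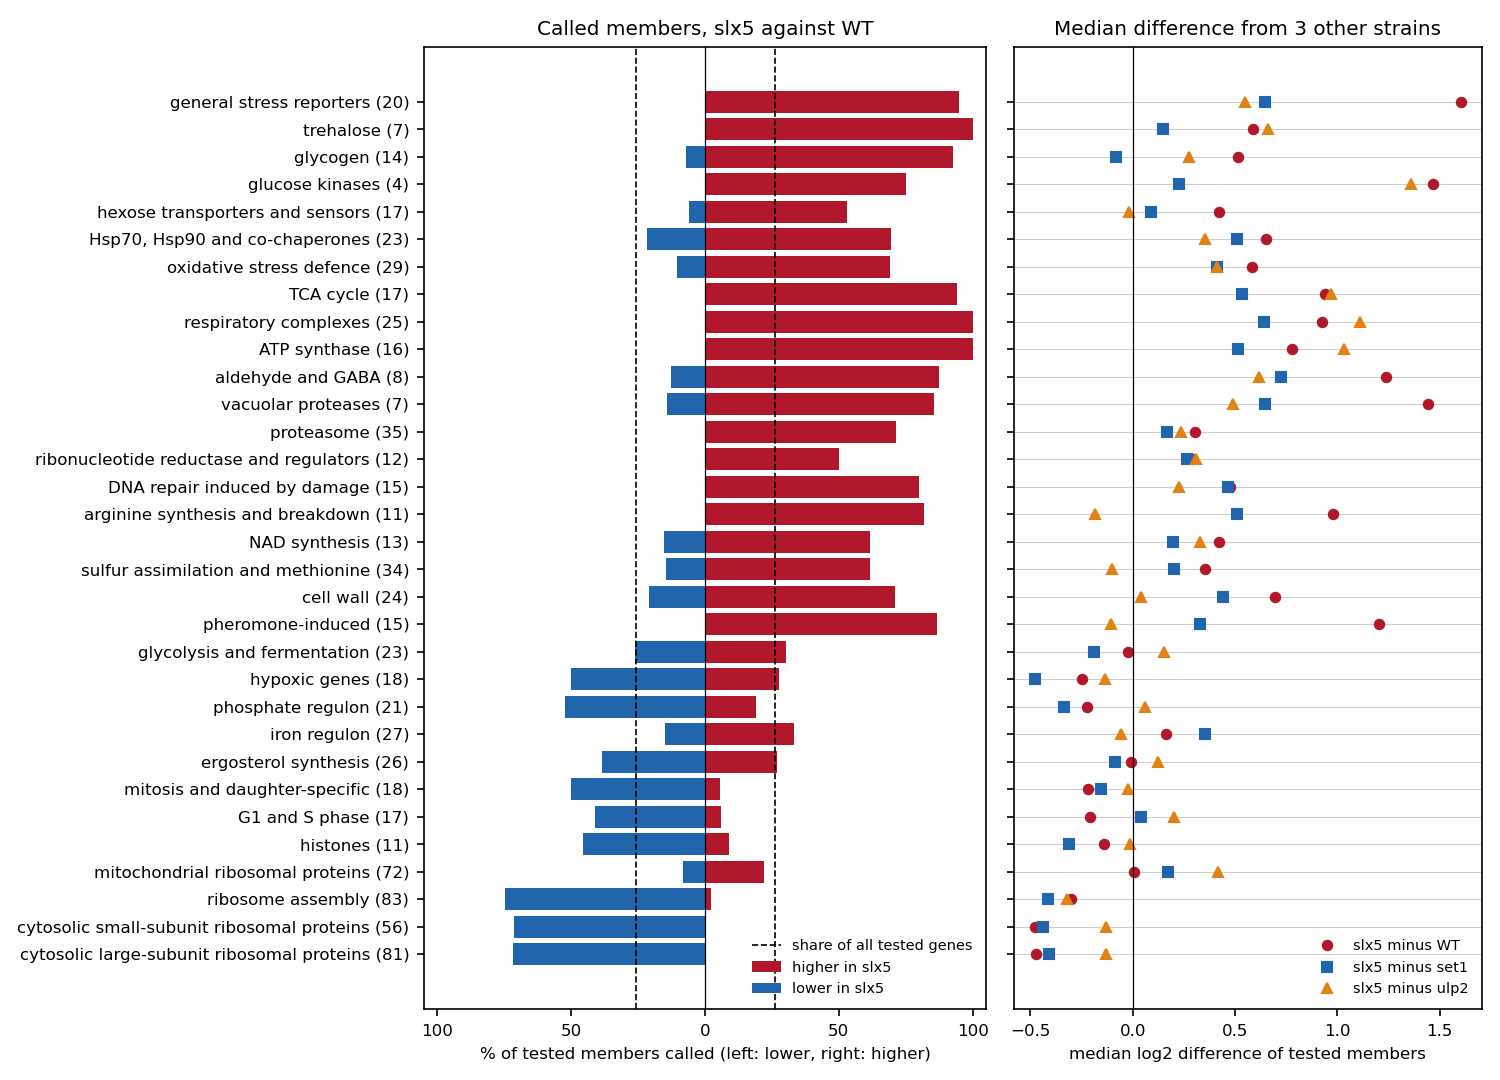
Left, the percentage of tested members (number in brackets) of 32 gene lists called higher (right of 0) or lower (left of 0) in slx5 against WT, with dashed lines at the shares of all tested genes, 26.1% and 25.7%. Right, the median log2 difference of each list's tested members between slx5 and WT, set1 and ulp2. Trehalose, respiratory complex and ATP synthase genes reach 100% higher, and the cytosolic ribosomal protein lists have no bar to the right.

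Genes of protein breakdown rose with small, even changes. Of 35 proteasome genes 25 were higher and 10 not called (median 0.30). PUP2 (YGR253C, chromosome VII, 998358 to 999140), a core subunit gene, had 450, 469 and 447 FPKM in slx5, against 320.3, 266 and 292 FPKM in WT (log2 difference 0.64, SE 0.073). The core subunit gene SCL1 had 429, 529 and 525 FPKM in slx5 and 311, 327 and 364 FPKM in WT and the regulatory subunit gene RPN1 205, 194 and 192 FPKM in slx5 and 145, 126 and 137.5 FPKM in WT. RPN4, the transcription factor gene for proteasome genes, had 70.0, 67.7 and 71.6 FPKM in slx5 and 55.6, 54.5 and 52.9 FPKM in WT (log2 difference 0.35, SE 0.051). The list's median difference was 0.17 against set1 and 0.24 against ulp2. Both PUP2 and SCL1 lie on chromosome VII, which stood higher as a whole (below).

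Rpn4 binds the proteasome-associated control element, searched as GGTGGCAAA on both strands. It was in 72 of the 5987 promoters and in 27 of the 35 of this list (77.1%). The PUP2 promoter (chrVII:999141-999440, reverse strand) is shown for the list's largest rise.
PUP2: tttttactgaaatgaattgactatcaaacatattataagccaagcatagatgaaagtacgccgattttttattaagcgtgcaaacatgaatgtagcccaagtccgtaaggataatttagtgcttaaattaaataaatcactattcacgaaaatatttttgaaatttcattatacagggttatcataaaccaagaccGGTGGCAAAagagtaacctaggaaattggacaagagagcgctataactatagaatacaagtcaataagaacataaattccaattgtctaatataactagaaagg

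In the pathway that Slx5 belongs to, CDC48 and 3 genes of its cofactors rose. UFD1 had 106, 114 and 104 FPKM in slx5 and 69.5, 59.8 and 65.6 FPKM in WT and NPL4, with which Ufd1 forms a heterodimer, 70.9, 66.1 and 69.3 FPKM in slx5 and 52.3, 52.3 and 58.5 FPKM in WT. UFD1 lies on chromosome VII, which stood higher as a whole (below). CDC48 itself had 505, 489.6 and 509 FPKM in slx5 and 391, 360.4 and 379.7 FPKM in WT (log2 difference 0.41, SE 0.05), and the cofactor gene SHP1 199, 211 and 222 FPKM in slx5 and 188, 196.5 and 178 FPKM in WT, a call lost without slx5 replicate 1 or 2 or WT replicate 0 or 2 (highest adjusted p = 0.126, log2 difference 0.13). The other SUMO-targeted ligase gene, ULS1, had 19.4, 17.8 and 19.6 FPKM in slx5 and 18.4, 19.5 and 18.6 FPKM in WT and was not called. Of 8 genes, the deleted SLX5 included, 4 were higher and 1 lower. Of 9 SUMO cycle genes 2 were higher and 3 lower, beside 26.1% and 25.7% of all genes, with called changes between -0.49 and 0.18. SMT3, which encodes SUMO, had 659, 672 and 680 FPKM in slx5 and 604, 619 and 614 FPKM in WT and the SUMO protease gene ULP1 41.4, 42.6 and 42.1 FPKM in slx5 and 36.7, 36.8 and 37.0 FPKM in WT, both higher. For SMT3 this was a call lost without slx5 replicate 1 or 2 or WT replicate 0 (highest adjusted p = 0.0757, log2 difference 0.12). The SUMO ligase genes SIZ1 (-0.25) and NFI1 (-0.49) and the activating enzyme gene UBA2 (-0.33) were lower, 3 calls that were all lost with scaling without the RPL41 genes, for SIZ1 a call lost without slx5 replicate 0 or 2 or WT replicate 1 (highest adjusted p = 0.0927, log2 difference -0.20). ULP2 had 24.6, 26.0 and 26.4 FPKM in slx5 and 28.9, 32.5 and 29.8 FPKM in WT and was not called (adjusted p = 0.0574).

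Vacuolar protease genes showed larger changes than the proteasome, with 6 of 7 higher and 1, APE3, lower, a call lost without slx5 replicate 0 or WT replicate 1 (highest adjusted p = 0.0797, log2 difference -0.21) (median 1.44). PEP4, the protease that activates the others, had 473, 484 and 504 FPKM in slx5 and 184, 169.5 and 182 FPKM in WT. PRB1 had 169, 173 and 173 FPKM in slx5 and 51.8, 60.2 and 57.4 FPKM in WT, and PBI2, an inhibitor of the Prb1 protease, 282, 278 and 299 FPKM in slx5 and 68.2, 34.4 and 55.5 FPKM in WT. APE1, the aminopeptidase carried by the cytoplasm-to-vacuole pathway, had 97.8, 117 and 118 FPKM in slx5 and 28.3, 29.5 and 28.9 FPKM in WT, and its receptor gene ATG19 43.1, 48.5 and 44.5 FPKM in slx5 and 26.5, 29.8 and 27.6 FPKM in WT. Of 19 autophagy genes 5 were higher, a share close to the 26.1% of all genes, including ATG8 with 101, 133 and 128 FPKM in slx5 and 60.4, 66.8 and 57.1 FPKM in WT and ATG1 with 22.2, 21.8 and 22.6 FPKM in slx5 and 10.3, 13.5 and 12.6 FPKM in WT, and 14 were not called. Scaled without the RPL41 genes, 10 were higher.

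Of 12 genes of ribonucleotide reductase and its regulators 6 were higher and 6 not called. HUG1 (YML058W-A, chromosome XIII, 158760 to 158966), which encodes a small inhibitor of ribonucleotide reductase, had 962, 964 and 1080 FPKM in slx5, against 44.1, 37.5 and 50.9 FPKM in WT. RNR3 (YIL066C, chromosome IX, 238099 to 240708), the damage-inducible large subunit gene, had 30.6, 34.0 and 36.3 FPKM in slx5, against 3.87, 4.02 and 5.74 FPKM in WT. The small subunit genes RNR2 and RNR4 had 714 ± 2.88 FPKM in slx5 and 279.8 ± 28.7 FPKM in WT, and 1976 ± 7.80 FPKM in slx5 and 736 ± 36.4 FPKM in WT (SD, n = 3 each). RNR1, the major large subunit gene, had 145, 149 and 147 FPKM in slx5 and 126.5, 147 and 156 FPKM in WT and was not called (adjusted p = 0.694), so the reductase genes did not move together. The checkpoint kinase gene DUN1 rose by 0.53 (SE 0.084), whereas MEC1 (0.25), RAD53 (0.16) and the repressor gene RFX1 (0.22) were not called. HUG1 was higher in slx5 than in set1 by 1.74 and than in ulp2 by 3.06, and RNR3 by 1.84 and 1.17.

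Rfx1 binds the X box, searched on both strands in the 1 exact form shown in capitals below, which was in 4 of the 5987 promoters (0.0668%). RNR3 was the 1 of 12 promoters of this list with a match (chrIX:240709-241008, reverse strand).
RNR3: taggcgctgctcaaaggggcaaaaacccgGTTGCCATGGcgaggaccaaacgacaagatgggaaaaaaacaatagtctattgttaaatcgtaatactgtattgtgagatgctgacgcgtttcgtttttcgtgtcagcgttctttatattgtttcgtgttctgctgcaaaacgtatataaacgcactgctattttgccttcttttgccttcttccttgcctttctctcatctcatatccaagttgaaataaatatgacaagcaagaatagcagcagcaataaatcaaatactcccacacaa

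Of 15 DNA repair genes known as induced by damage 12 were higher and 3 not called (median 0.47). RAD54, a DNA translocase gene of homologous recombination, had 43.2, 46.5 and 50.3 FPKM in slx5 and 27.3, 24.6 and 26.7 FPKM in WT, while the recombination gene RAD52 had 51.4, 50 and 56.7 FPKM in slx5 and 44.5, 52.5 and 44.9 FPKM in WT and was not called (adjusted p = 0.11). The glycosylase gene MAG1 had 45.9, 48.5 and 52.7 FPKM in slx5 and 19.3, 18.6 and 16.6 FPKM in WT. UBI4, the polyubiquitin gene that also responds to heat, had 577, 517 and 514 FPKM in slx5 and 103, 87.5 and 114 FPKM in WT, and at 524 FPKM in ulp2 it did not differ past the threshold from that strain (log2 difference 0.036, adjusted p = 0.805). UBI4 lies on chromosome XII, whose scores were 0.620 to 0.642 in ulp2 and -0.160 to -0.148 in slx5. Its difference from ulp2 holds that offset too. The list's median was 0.47 against set1 and 0.23 against ulp2.

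Cytosolic ribosome genes were lower. Of 56 small-subunit protein genes 40 were lower and 16 not called, and of 81 large-subunit protein genes 58 were lower and 23 not called, with medians of -0.48 and -0.47. RPS14B (YJL191W, chromosome X, 73787 to 74611) had 385, 379.8 and 392 FPKM in slx5, against 891, 819 and 845 FPKM in WT (log2 difference -1.14, SE 0.055). RPS26B had 2027, 1860 and 1942 FPKM in slx5 and 4496, 4242 and 3816 FPKM in WT, RPL7B 99.6, 90.8 and 97.9 FPKM in slx5 and 221, 202 and 212 FPKM in WT and RPL22B 215, 184 and 204 FPKM in slx5 and 483, 342 and 415 FPKM in WT. Each belongs to a pair of near copies, and how reads that fit both were divided was not stated. By quantile normalization 22 of the 56 were lower and 4 higher, and 37 of the 81 were lower and 4 higher. Against ulp2 the medians were -0.13 and -0.13, and against set1 -0.44 and -0.41.

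Ribosome assembly genes were lower as well, 62 of 83, with 2 higher (SQT1 and DBP7) and a median of -0.30. For SQT1 this was a call lost without slx5 replicate 0, 1 or 2 or WT replicate 1 or 2 (highest adjusted p = 0.125, log2 difference 0.20). GAR1 (YHR089C, chromosome VIII, 282681 to 283298), a core protein gene of the snoRNPs that modify rRNA, had 474, 487 and 500 FPKM in slx5, against 1073, 900.2 and 875 FPKM in WT (log2 difference -0.96, SE 0.096). NOP56, a core protein gene of another class of snoRNPs, had 632, 607 and 607 FPKM in slx5 and 1318, 974 and 1043 FPKM in WT, and RRP8, an rRNA methyltransferase gene, 129, 128 and 127 FPKM in slx5 and 253.5, 241 and 208 FPKM in WT. Scaled without the RPL41 genes, 32 of the 83 were lower and 5 higher, and the median stood at -0.14. The median was -0.42 against set1 and -0.32 against ulp2. Of 14 RNA polymerase I genes 7 were lower, including the large subunit genes RPA190 (-0.41) and RPA135 (-0.38). The median of the 14 was -0.19, and -0.031 when scaled without the RPL41 genes, where that of all genes was 0.15.

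The PAC element of ribosome assembly promoters, searched as GCGATGAG on both strands, was in 4.06% of the 5987 promoters and in 43 of the 83 of this list (51.8%). The RRP8 promoter (chrIV:611773-612072, forward strand) is shown for the largest fall among those with a match.
RRP8: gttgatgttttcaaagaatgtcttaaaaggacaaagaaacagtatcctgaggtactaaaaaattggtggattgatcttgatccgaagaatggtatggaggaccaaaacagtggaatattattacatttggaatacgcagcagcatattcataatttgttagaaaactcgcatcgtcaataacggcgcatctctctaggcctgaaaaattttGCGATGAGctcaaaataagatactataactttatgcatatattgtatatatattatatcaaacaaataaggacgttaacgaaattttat

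Hypoxic genes split. Of 18 genes 9 were lower and 5 higher (median -0.25). ANB1 (YJR047C, chromosome X, 524908 to 525381), the isoform of translation factor eIF5A made without oxygen, had 40.9, 39.1 and 40.5 FPKM in slx5, against 252, 175 and 223.5 FPKM in WT. The cell wall mannoprotein gene TIR1 had 159, 152 and 163 FPKM in slx5, against 658, 707 and 620 FPKM in WT, and its relatives TIR2 (-1.06) and TIR3 (-0.60) were lower too. HEM13, a heme synthesis gene, had 161, 154 and 146 FPKM in slx5 and 463, 459.7 and 410 FPKM in WT, and AAC3, the ADP/ATP carrier isoform gene of low oxygen, 17.1, 20.1 and 15.53 FPKM in slx5 and 73.7, 50.5 and 70.4 FPKM in WT. ROX1, the heme-dependent repressor gene of this group, had 122, 123 and 124.5 FPKM in slx5 and 58.1, 78.0 and 62.0 FPKM in WT. Higher were CYC7 (above), the fatty acid desaturase gene OLE1 with 878, 788 and 799.7 FPKM in slx5 and 451, 375 and 369.5 FPKM in WT, and COX5B with 136, 131.5 and 157 FPKM in slx5 and 93.2, 80.2 and 91.0 FPKM in WT. Of the aerobic counterparts, HYP2, the eIF5A gene used with oxygen and close to ANB1 in sequence, had 2633, 2344 and 2283 FPKM in slx5 and 2795, 1830 and 2425 FPKM in WT and was not called, and PET9, the main ADP/ATP carrier gene, had 832, 877 and 879 FPKM in slx5 and 380.2, 311.5 and 441 FPKM in WT. TIR1 was lower in slx5 than in set1 (log2 difference -2.17) but higher than in ulp2 by 0.36 (adjusted p = 0.000126).

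Rox1 binds sites searched here as ATTGTTCTC on both strands, found in 0.785% of the 5987 promoters and in 3 of the 18 of this list (16.7%). ANB1 holds 2 (chrX:525382-525681, reverse strand).
ANB1: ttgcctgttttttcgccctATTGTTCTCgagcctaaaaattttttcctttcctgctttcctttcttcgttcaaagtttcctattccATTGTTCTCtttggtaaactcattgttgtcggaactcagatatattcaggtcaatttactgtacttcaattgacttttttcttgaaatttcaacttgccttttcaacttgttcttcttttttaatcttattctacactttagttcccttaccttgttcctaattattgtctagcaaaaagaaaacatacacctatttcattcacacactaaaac

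Nutrient regulons held genes that moved both ways. In the phosphate regulon, of 21 genes 11 were lower and 4 higher, against 3 higher and 13 lower in the comparison with set1 and 8 higher and 5 lower in that with ulp2. The secreted acid phosphatase gene PHO5 had 87.5, 85.9 and 89.8 FPKM in slx5, against 333, 324 and 340 FPKM in WT, with its near copies PHO11 at -1.15 and PHO12 at -1.67. The high-affinity transporter gene PHO84 had 796, 751 and 722 FPKM in slx5 and 694, 497 and 651 FPKM in WT and the regulator gene PHO81 55.5, 53.9 and 53.1 FPKM in slx5 and 46.3, 47.4 and 47.8 FPKM in WT, both higher, for PHO84 a call lost without slx5 replicate 0 or WT replicate 1 (highest adjusted p = 0.0731, log2 difference 0.28), and the phosphatase gene PHM8 rose by 1.66 (SE 0.098). PHO81 lies on chromosome VII, which stood higher as a whole (below). In the iron regulon, of 27 genes 9 were higher and 4 lower (14 and 3 with scaling without the RPL41 genes), against 17 higher and 2 lower in the comparison with set1 and 9 higher and 8 lower in that with ulp2. The mannoprotein genes FIT1 and FIT3, which retain siderophores in the wall, had 3.61 ± 0.763 FPKM in slx5 and 17.5 ± 1.70 FPKM in WT, and 148 ± 6.53 FPKM in slx5 and 371 ± 48.9 FPKM in WT (SD, n = 3 each), both lower, while the heme oxygenase gene HMX1 had 28.9, 27.8 and 26.9 FPKM in slx5 and 8.27, 8.46 and 6.99 FPKM in WT and the reductase gene FRE1 45.3, 40.7 and 43.0 FPKM in slx5 and 21.6, 19.2 and 17.6 FPKM in WT, both higher. FIT3 was higher in slx5 than in set1 (0.56) and lower than in ulp2 (-0.89). Of 12 zinc regulon genes 4 were higher and 3 lower, beside 26.1% and 25.7% of all genes, and with scaling without the RPL41 genes 7 were higher. The zinc transporter genes ZRT1, with 65.8, 68.0 and 65.2 FPKM in slx5 and 249, 192 and 213 FPKM in WT, and ZRT2, with 125, 130.3 and 124 FPKM in slx5 and 219.6, 227 and 216 FPKM in WT, were lower, whereas ZAP1, the regulator gene of both, had 15.4, 14.4 and 15.6 FPKM in slx5 and 15.1, 19.9 and 15.9 FPKM in WT and was not called.

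Amino acid genes were higher in several pathways. Of 11 genes of arginine synthesis and breakdown 9 were higher (median 0.98). The ornithine carbamoyltransferase gene ARG3 had 12.7, 11.4 and 13.1 FPKM in slx5 and 3.00, 2.93 and 1.91 FPKM in WT. CAR1 and CAR2, which break arginine down, rose by 0.96 and 1.42. Against set1 10 genes were higher and 0 lower, with a list median of 0.51. Against ulp2 1 gene was higher and 4 lower, the list's median was -0.19 and CAR2 differed by 0.00040. In lysine synthesis 6 of 9 genes were higher, LYS2 included. Against set1 8 were higher and 0 lower, while against ulp2 1 was higher and 3 lower. LYS1 had 96.0, 102 and 94.4 FPKM in slx5 and 63.8, 66.1 and 67.6 FPKM in WT and LYS9 152, 144 and 141 FPKM in slx5 and 125, 96.2 and 104 FPKM in WT. LYS9 averaged 65.6 FPKM in set1, where LYS2 was near 0 as in WT, and 139.9 FPKM in ulp2, where LYS2 was expressed as in slx5. Of 34 genes of sulfur assimilation and methionine 21 were higher and 5, MET17 among them, lower. Against set1 14 were higher and 3 lower, whereas against ulp2 5 were higher and 12 lower. The S-methylmethionine genes MHT1 and MMP1 had 21.0, 19.8 and 22.3 FPKM in slx5 and 7.11, 7.01 and 5.34 FPKM in WT, and 41.5, 39.3 and 37.3 FPKM in slx5 and 20.6, 17.3 and 19.9 FPKM in WT, while the regulator genes CBF1 (-0.57) and MET31 (-0.55) were lower. The part of the LYS2 and MET17 levels in these results was not tested.

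Genes of NAD synthesis were mostly higher, 8 of 13, with 2 lower. BNA2, the first enzyme of synthesis from tryptophan, had 19.5, 21.1 and 19.6 FPKM in slx5 and 2.37, 2.77 and 3.18 FPKM in WT, and the nicotinamidase gene PNC1 737, 756 and 753.5 FPKM in slx5 and 316, 320.2 and 297 FPKM in WT. The nicotinic acid transporter gene TNA1 had 159, 163 and 169.6 FPKM in slx5 and 171.5, 161 and 175 FPKM in WT and was not called. BNA2 did not differ past the threshold from set1, which averaged 21.1 FPKM (-0.060, adjusted p = 0.715), while BNA1 was higher (1.25) and TNA1 lower (-1.72) in slx5 than in set1.

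Cell wall genes were higher in 17 of 24 cases and lower in 5 (median 0.69). The count of lower genes was 2 with scaling without the RPL41 genes and 3 without slx5 replicate 0, 1 or 2 or WT replicate 1. Against set1 15 were higher and 4 lower, and against ulp2 8 were higher and 8 lower. PIR3 (YKL163W, chromosome XI, 144401 to 145378) had 88.5, 97.9 and 94.5 FPKM in slx5, against 6.92, 3.8 and 6.12 FPKM in WT, and the mannoprotein gene CWP1 had 358, 411 and 413 FPKM in slx5 and 33.1, 30.6 and 36.3 FPKM in WT. SLT2, the MAP kinase gene of the cell integrity pathway, had 210, 226 and 210.5 FPKM in slx5 and 69.1, 66.3 and 67.1 FPKM in WT and GSC2, the stress-induced glucan synthase gene, 45.6, 46.2 and 45.0 FPKM in slx5 and 13.8, 14.5 and 15.9 FPKM in WT. CWP2, which lies beside CWP1 on chromosome XI, had 11010, 11030 and 11360 FPKM in slx5 and 13060, 16500 and 13650 FPKM in WT and was lower, a call lost without slx5 replicate 0, 1 or 2 or WT replicate 1 or 2 (highest adjusted p = 0.136, log2 difference -0.26). The falls included the septation gene SUN4 (-0.81, SE 0.054) and TIP1 (-0.50, SE 0.06). CWP1 was higher in slx5 than in set1 by 1.04 and than in ulp2 by 0.48, while GSC2 differed from ulp2 by -0.0023 (adjusted p = 0.976).

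Genes induced by mating pheromone were higher in slx5 than in WT, 13 of 15 (median 1.20). FIG1, a membrane protein gene for mating, had 38.4, 39.3 and 36.0 FPKM in slx5 and 2.96, 3.26 and 2.95 FPKM in WT, and set1 had 32.7, 33.5 and 29.0 FPKM and ulp2 45.4, 47.8 and 44.9 FPKM, so all alpha-type strains stood above the a-type WT. Against set1 10 of the 15 were higher and 2 lower (median 0.33), and against ulp2 4 were higher and 7 lower (median -0.11). PRM5, a target of the cell integrity pathway as well, had 190.5, 193 and 190.2 FPKM in slx5, 62.1, 56.4 and 64.8 FPKM in set1, 179, 167 and 169 FPKM in ulp2 and 48.1, 45.0 and 47.0 FPKM in WT, and was higher in slx5 than in set1 by 1.63 (adjusted p = 3.53e-10). Of 15 genes of the pheromone pathway itself 3 were higher and 2 lower, namely STE4, the G-protein beta subunit gene, with 101, 91.8 and 91.5 FPKM in slx5 and 166, 165 and 161 FPKM in WT, and HO, the mating-type switching endonuclease gene, with 9.83, 9.21 and 11.2 FPKM in slx5 and 29.6, 31.3 and 31.7 FPKM in WT.

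Cell cycle genes were lower in part. Of 18 genes of mitosis and daughter cells 9 were lower and 1 higher (median -0.22). With scaling without the RPL41 genes the median of the 18 was -0.061, beside 0.15 over all genes. Against set1 9 were lower and 2 higher, and against ulp2 6 were lower and 5 higher. The daughter-specific genes that separate cells, EGT2 and DSE2, had 109.9 ± 8.54 FPKM in slx5 and 209 ± 26.4 FPKM in WT, and 317 ± 25.1 FPKM in slx5 and 467 ± 38.6 FPKM in WT (SD, n = 3 each), and DSE3 (-0.63) and DSE4 (-0.70) were lower too. The polo kinase gene CDC5 had 49.1, 43.9 and 44.9 FPKM in slx5 and 69.0, 71.6 and 65.7 FPKM in WT, while the anaphase activator gene CDC20 had 63.8, 56.5 and 60.3 FPKM in slx5 and 48.3, 47.9 and 48.2 FPKM in WT and was higher. Of 17 genes of G1 and S phase 7 were lower, led by the cyclin gene CLN1 with 36.4, 40.8 and 42.8 FPKM in slx5 and 68.0, 77.8 and 73.4 FPKM in WT. Without slx5 replicate 1, slx5 replicate 2 or WT replicate 1, 4, 3 and 4 of the 17 were lower, and 2 were with scaling without the RPL41 genes. Against set1 3 of the 17 were higher and 1 lower (median 0.039), and against ulp2 9 were higher and 1 lower (median 0.20). CLN1 was not called against set1 (-0.15) or ulp2 (0.14). Of 11 histone genes 5 were lower, HTB2 most with 1270, 1210 and 1270 FPKM in slx5 and 1925, 2028 and 1683 FPKM in WT, and 1, HTB1, was higher with 1974, 1788 and 1887 FPKM in slx5 and 1810, 1397 and 1534 FPKM in WT, whose ranges overlap, a call lost without slx5 replicate 0 or 2 or WT replicate 1 or 2 (highest adjusted p = 0.134, log2 difference 0.18). Without slx5 replicate 1 the count of lower histone genes was 2, as it was with scaling without the RPL41 genes.

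Expression also differed by chromosome. A score was taken per library for each of the 16 nuclear chromosomes: the median log2 deviation of its tested genes from their means over all 15 libraries, less the median over the other chromosomes. By limma on the scores, 15 of 16 were called (93.8%), so a call alone says little, and the sizes are given. Chromosome VII had scores of 0.219, 0.206 and 0.204 in slx5, against -0.0555 to -0.0347 in set1, -0.113 to -0.0991 in ulp2 and -0.0410, -0.0159 and -0.0293 in WT. Its difference from WT was 0.24 (95% confidence interval 0.22 to 0.26), and a two-sided permutation test, exact over 3 libraries of each strain, gave p = 0.1, the smallest possible. That test gave the same p for each of the 16 chromosomes, so it cannot set VII apart from the others. Of the 523 tested genes of VII 245 were higher and 39 lower. Differences of single genes of VII named elsewhere, such as UFD1, PDE1, HSF1, PHO81, RAD54 and COS6, hold that offset too.

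The 17 windows of about 30 genes along chromosome VII all had medians above 0, at 0.048 to 0.42 against WT, 0.10 to 0.37 against set1 and 0.15 to 0.43 against ulp2. Chromosome XI followed at 0.14 (128 of 313 genes higher, 41 lower) and VI at 0.11 (39 of 119 higher, 22 lower). Chromosome IX was lower, at -0.14 (35 of 209 higher, 85 lower). Its first 6 windows had medians of -0.26 to -0.011 and the last window, toward the right end, 0.24. Of the windows of chromosome XI, the first was the highest at 0.31 and the last the lowest at 0.013. On VII, the most abundant called genes in WT were TDH3 (above) and the ribosomal protein genes RPL24B, with 3043, 2868 and 2951 FPKM in slx5 and 4367, 3443 and 3251 FPKM in WT, and RPS2, with 2885, 2732 and 2595 FPKM in slx5 and 4000, 2984 and 3482 FPKM in WT, both lower, for RPL24B a call lost without slx5 replicate 0, 1 or 2 or WT replicate 0 (highest adjusted p = 0.177, log2 difference -0.18). COS12, the first gene of its first window, had 14.8, 13.0 and 14 FPKM in slx5 and 0.656, 0.921 and 0.888 FPKM in WT. On IX, the largest rises were YIR042C with 17.0, 16.6 and 14.2 FPKM in slx5 and 0.465, 1.80 and 1.37 FPKM in WT, RNR3 (above) and the yapsin gene YPS6 with 14.9, 18 and 19.2 FPKM in slx5 and 3.11, 2.92 and 2.71 FPKM in WT, all higher although the chromosome's score was lower.

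**Figure D4:**
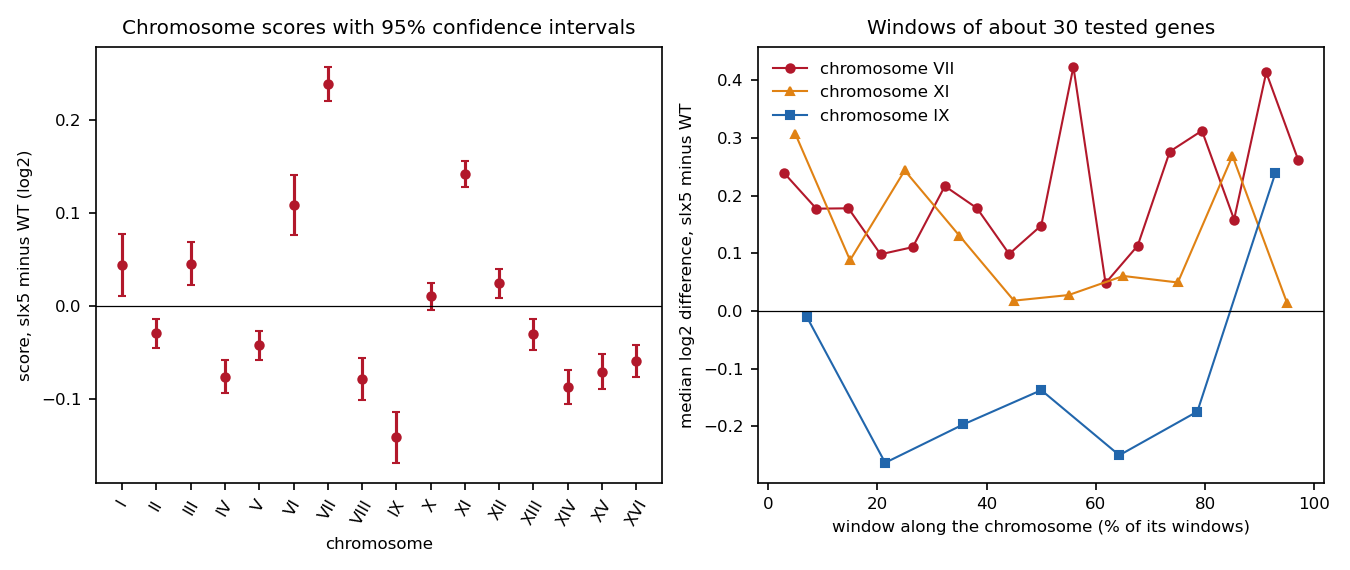
Left, the difference of each chromosome's score between slx5 and WT, with 95% confidence intervals. Right, the median log2 difference of about 30 genes per window along chromosomes VII, XI and IX. Chromosome VII has the highest score and all its windows lie above 0, while IX has the lowest score and 6 of its 7 windows lie below 0.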

How the data were processed

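RNA abundance was taken from the deposited table of FPKM values per gene, which the authors made, per the submitters' processing notes, with TopHat2 2.0.12, Cuffdiff (version not given in the sources used here) and genome R64. Counts were not analysed here and depth is unknown. Strand use in counting was not stated, so overlapping genes cannot be told apart. Of 7126 IDs, 6048 matched the RefSeq R64 annotation and 1078 did not. With R 4.3.3 and limma 3.58.1 (lmFit, then eBayes with trend), log2(FPKM + 1) of the 6344 genes was fitted by group over all 15 libraries (10 residual degrees of freedom), and p-values were Benjamini-Hochberg adjusted over these genes. The code was tested on simulated data.

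Named genes were SLX5, the marker and mating-type genes, the 12 largest rises and 12 largest falls among called genes that reach 10 FPKM on average in a strain and whose libraries do not overlap, any member of a list of at most 20 genes, up to 4 rises and 4 falls of longer lists, and per called chromosome the 3 largest rises and the 3 most abundant called genes in WT. RPL41A and RPL41B, and SSA2, were named after their values were seen. Members and lists were chosen with earlier results of these data known. Alternatives were other pseudocounts, filters and scalings, a fit of slx5 and WT alone, no trend, a replicate block and leaving out each library of the strains compared.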

Additional observations from a re-analysis of the deposited data

How the results depend on the processing

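Genes of slx5 against WT numbered 1654 higher and 1629 lower. With each library scaled to its total without RPL41A and RPL41B, 710 were lower (2180 higher), 35 lower by at least 2-fold, and against set1 2061 were higher and 579 lower, while the median difference over all genes moved to 0.15. With a pseudocount of 10, 209 were higher by at least 2-fold, since that scale shrinks changes of low genes. Leaving out 1 library in turn gave 1492 to 1606 higher and 1411 to 1534 lower (397 to 424 and 51 to 59 by at least 2-fold), 1119 to 1273 and 1194 to 1380 against set1, 1240 to 1392 and 1227 to 1384 against ulp2, and 13 to 15 chromosomes. Leaving out set1 and ulp2 libraries was chosen after seeing the data. Other filters, median scaling, quantile normalization and the fit of slx5 and WT alone kept these counts within 1.5 times. Depth is unknown, so how far it limits low genes was not tested.

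No sign of pairing by replicate number was seen. Deviations correlated by 0.0437, -0.00673 and 0.0261 between libraries of the same number and by -0.121 to 0.107 between the others. With 3 libraries per strain this cannot show that pairing is absent. The fit with a replicate block gave 1661 higher and 1646 lower, 409 and 52 by at least 2-fold.

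Of the called results named, RPL24B (0.12) and RPS2 (0.046) changed sign under quantile normalization, where neither was called. Genes not called in the main analysis that changed sign were, under quantile normalization, SDP1 (-0.086), MEC1 (-0.21), IME1 (-0.086), RAD53 (-0.19), HAP5 (-0.042), ULS1 (-0.10) and HXK2 (0.080), under median scaling ULS1 (-0.019), and under scaling without the RPL41 genes TNA1 (0.11), HAP2 (0.10), HXK2 (0.081), MSN2 (0.036) and ZAP1 (0.0021). Leaving out 1 library gave ranges of -0.019 to 0.17 for SLX8, -0.11 to 0.20 for HYP2, -0.067 to 0.13 for HAP5, -0.045 to 0.10 for RNR1, -0.017 to 0.049 for ULS1 and -0.15 to 0.096 for HAP2. The causes were not tested.

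Of 4 chromosome scores that lost their call under some alternative, that of chromosome XII did without WT replicate 0 (0.015, adjusted p = 0.0527) and that of chromosome I without slx5 replicate 1 (0.020, adjusted p = 0.232) or WT replicate 0 (0.034, adjusted p = 0.0876). Calls were also lost with all libraries kept. By quantile normalization, and in the fit of slx5 and WT alone, 13 chromosomes were called, against 15 in the main analysis. With a pseudocount of 0.1 or 10, or at least 10 FPKM in 3 libraries, 14 were called. Genes named with a call that was lost without 1 library are marked beside their values.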

Other observations

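Genes of early meiosis, which are silent or low in haploid cells on glucose, were at low levels in both strains, and of 18 tested genes 10 were higher in slx5 and 1 lower (median log2 difference 0.34, background 26.1% and 25.7% of all genes). The kinase gene IME2 had 8.80, 8.24 and 7.78 FPKM in slx5 and 2.77, 4.67 and 3.83 FPKM in WT, the meiotic recombinase gene DMC1 11.3, 12.7 and 13.4 FPKM in slx5 and 5.94, 7.01 and 5.67 FPKM in WT and the cohesin gene REC8 4.16, 4.22 and 3.34 FPKM in slx5 and 0.619, 1.08 and 0.757 FPKM in WT. IME1, the master regulator gene, had 10.8, 13.7 and 14.6 FPKM in slx5 and 9.22, 13.4 and 12.1 FPKM in WT and was not called by limma (adjusted p = 0.349), while the repressor gene UME6 was lower, with 24.6, 26.5 and 29.2 FPKM in slx5 and 31.2, 39.4 and 32.9 FPKM in WT. By quantile normalization 5 of the 18 were higher, and with the floor raised to 10 FPKM 2 of the 5 genes left were. Against set1 4 of the 18 were higher in slx5 and 1 lower. Against ulp2 8 of the 18 were lower in slx5, including REC8 (-0.53) and SPO11 (-0.48).

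Of 10 tested COS genes, a family near chromosome ends whose products help sort membrane proteins to the vacuole, 8 were higher (median 0.50), among them COS1 with 44.8, 43.4 and 39.1 FPKM in slx5 and 23.8, 18.3 and 22.5 FPKM in WT and COS6 with 221, 203 and 203 FPKM in slx5 and 155, 124 and 148 FPKM in WT. The members are close in sequence, so their split is uncertain. Of 15 silencing genes 4 were lower, a share close to the 25.7% of all genes (2 with scaling without the RPL41 genes and 8 by quantile normalization), including the deacetylase genes HST1 (-0.47) and HST3 (-0.48) and the replication fork barrier gene FOB1 (-0.51), and RIF2 was higher (0.37). SIR2 had 27.5, 24.9 and 26.0 FPKM in slx5 and 31.3, 32.6 and 27.3 FPKM in WT and was lower, with ranges that overlap, a call lost without slx5 replicate 1 or 2 or WT replicate 0 or 1 (highest adjusted p = 0.132, log2 difference -0.16), and SIR3 was not called (0.10).

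Of 16 purine synthesis genes 5 were higher and 6 lower, beside 26.1% and 25.7% of all genes. Against set1 2 of the 16 were higher and 11 lower, beside 21.0% and 23.2% of all genes. Against ulp2 3 were higher and 9 lower, beside 23.5% and 23.0%. The one-carbon dehydrogenase gene MTD1 had 123, 112.5 and 117 FPKM in slx5 and 63.1, 44.3 and 54.3 FPKM in WT, while IMD2, an IMP dehydrogenase gene, had 107, 109 and 108.5 FPKM in slx5 and 189, 159 and 184 FPKM in WT. Without WT replicate 0, 3 of the 16 were lower. Of 12 drug efflux genes 5 were higher and 3 lower, beside 26.1% and 25.7% of all genes. The regulator gene PDR1 had 48.1, 46.2 and 48.2 FPKM in slx5 and 28.5, 33.2 and 33.1 FPKM in WT, while the transporter gene PDR5 had 312, 274 and 269 FPKM in slx5 and 375, 336 and 391 FPKM in WT. Without slx5 replicate 0 or WT replicate 1, 3 of the 12 were higher. Of 15 genes of fatty acid oxidation 9 were higher and 1 lower, led by the carnitine carrier gene CRC1 with 5.09, 5.66 and 6.80 FPKM in slx5 and 1.25, 0.852 and 1.58 FPKM in WT, and by quantile normalization 4 were higher. Against set1 5 were higher and 3 lower, and against ulp2 2 were higher and 6 lower.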
